A study of Macaca fascicularis with 6 samples.

Results

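FIGLA, NOBOX, LHX8, SOHLH1, SOHLH2 and TBPL2 are transcription factors of the female germ line, 6 genes of the 28164 in the count table, chosen by their gene symbols. They were followed in oocytes of cynomolgus monkeys (Macaca fascicularis) by RNA sequencing. IVM MII oocytes had matured in culture to metaphase of the second meiotic division, IVO MII oocytes had done so in the animal, and GV oocytes were immature, with the nucleus (germinal vesicle) still intact. Each of the 3 groups had 2 libraries. All oocytes were wild type, non-treated and stripped of their surrounding cells, as the labels have it, and no allele or agent separated the groups. How many oocytes and animals went into a library, or how old the animals were, is not stated in the labels. The p-values therefore measure the spread between these libraries, which may be technical.

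In mouse, these factors act while follicles form and begin to grow. SOHLH1 and SOHLH2 are related basic helix-loop-helix (bHLH) proteins that pair with each other and stand upstream of NOBOX and LHX8. NOBOX is a homeobox protein and LHX8 a LIM homeodomain protein, and both are required for the growth of primordial follicles. FIGLA, a bHLH protein, is required for primordial follicles to form and for the zona pellucida genes, and TBPL2 (also called TBP2 or TRF3) takes the place of the general factor TBP at oocyte promoters during oocyte growth. A fully grown oocyte makes little RNA, so the transcripts of GV and MII oocytes are for the most part stored ones, which maturation reads out, lengthens or shortens at the poly(A) tail, or degrades.

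Levels are CPM, read counts scaled to a common library size with TMM factors, as mean ± SD of n = 2 libraries, and cDNA was primed on poly(A) tails. They express a share of what was primed in each library, so that fewer cells of a type and less RNA per cell cannot be told apart. Fold changes come from edgeR's quasi-likelihood test over all 6 libraries, given as log2 fold change ± standard error with Benjamini-Hochberg adjusted p over 15815 genes, and a gene is called where that adjusted p is under 0.05. The libraries held between 27707021 and 35515139 counts, and 18264 to 20082 genes had a count. The 8 oocyte markers were all tested and summed to 10037 to 13466 CPM in IVM MII, 21159 to 21782 CPM in IVO MII and 19380 to 21674 CPM in GV libraries. The most abundant markers in MII weighed most in these sums, WEE2 at 2987 CPM in IVM MII and 9785 CPM in IVO MII, and BTG4 at 5315 and 8868 CPM. In IVM MII against IVO MII, 2 of the 8 (ZP4 and NLRP5) were called higher, 1 (WEE2) lower and 5 were not called, where 24.6% of all genes tested were called. Of 17 cumulus and granulosa cell markers, 6 passed the filter and INHA, FOXL2, PTX3, STAR and HSD17B1 had no count in any library. Their sum was 79.5 to 80.8 CPM in IVM MII, 35.5 to 52.2 CPM in IVO MII and 32.8 to 38.9 CPM in GV libraries. Of 12 markers of theca, stroma, endothelium and blood, 4 passed, CYP17A1, HBB and ALAS2 had no count, and the sums were 151 to 159, 83.1 to 86.9 and 326 to 384 CPM in IVM MII, IVO MII and GV. VWF made up most of the last list's sum in IVM MII and GV, at 103 CPM in IVM MII, 43.9 CPM in IVO MII and 312 CPM in GV, while PECAM1 had 19.4 CPM in IVM MII, 15.6 CPM in IVO MII and 9.33 CPM in GV, and CDH5 had 31.3, 24.7 and 32.8 CPM in the same order.

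Among the factors, 4 fell with maturation on either route and 1 moved the other way. FIGLA, TBPL2, LHX8 and NOBOX were lower in IVM MII than in GV and lower in IVO MII than in GV, while SOHLH2 rose in IVM MII and was not called in IVO MII. SOHLH1 was near the limit of detection in every library and was not tested, the filter on low counts having removed it. In IVM MII against GV, 1 of the 5 tested factors was higher and 4 were lower, where 50.3% of all genes tested were called, 25.6% higher and 24.7% lower. In IVO MII against GV, 4 were lower and 0 higher by edgeR, against 58.5% called among all genes, 30.5% lower and 28.1% higher. For that 0, the number of factors higher at an unadjusted p under 0.05 was 0, and DESeq2 and limma-voom each gave 0. In IVM MII against IVO MII, 1 was higher and 0 lower by edgeR, against 24.6% called among all genes, 14.3% higher and 10.3% lower. There, 1 factor was lower at an unadjusted p under 0.05, and DESeq2 and limma-voom each called 0 lower. The comparisons with GV share the GV libraries. Among all genes, higher calls were 50.9% of the calls in IVM MII against GV and 58.0% in IVM MII against IVO MII, and 63.7% and 75.8% with library totals, under which the median over all genes stood at 0.35 and 0.24 (log2) in place of 0.06 and 0.02.

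**Figure D1:**
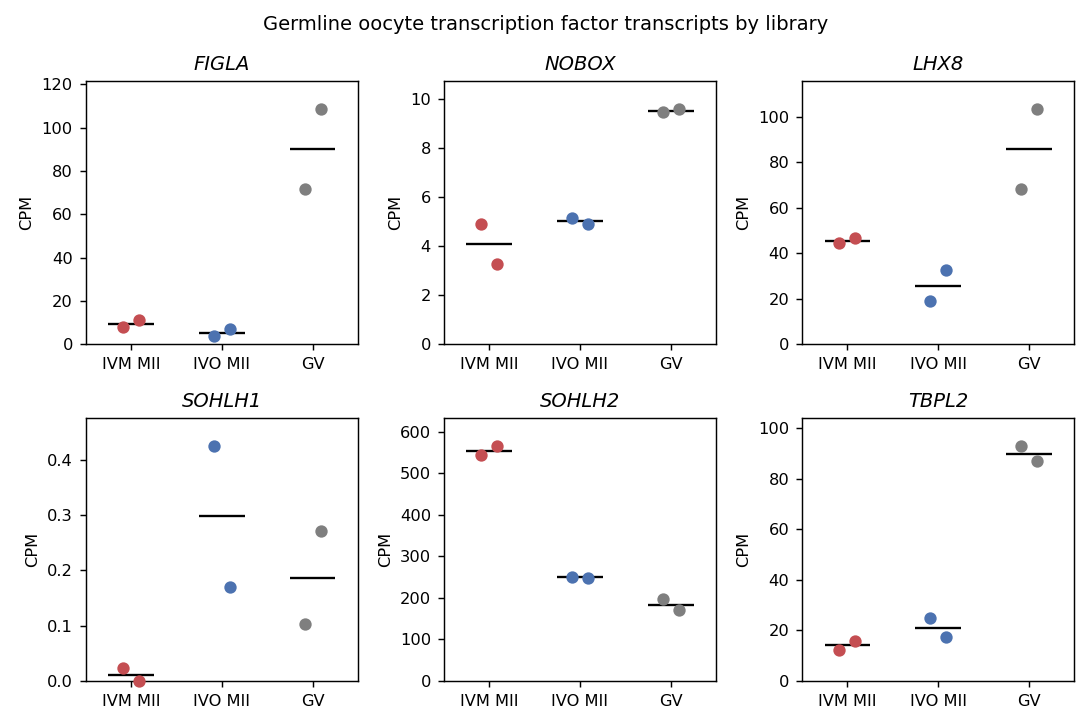
CPM (vertical axis, from 0, a scale for each gene) of the 6 factors in IVM MII, IVO MII and GV oocytes, with points for the 2 libraries of a group and bars for their mean. FIGLA, TBPL2, LHX8 and NOBOX stand highest in GV, SOHLH2 stands highest in IVM MII at 544 and 566 CPM, and SOHLH1 stays below 0.5 CPM in every library.

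**Figure D2:**
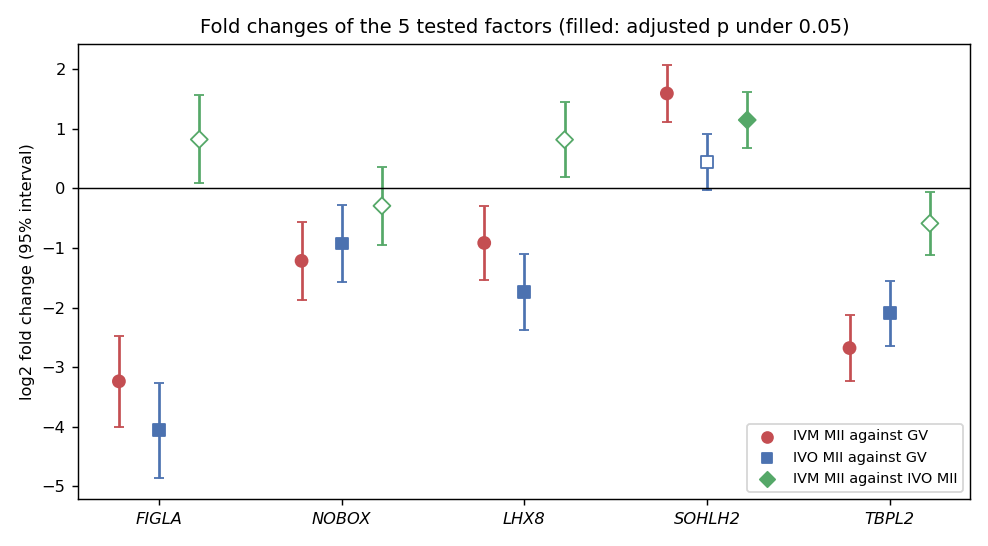
log2 fold changes with 95% intervals of the 5 tested factors in IVM MII against GV, IVO MII against GV and IVM MII against IVO MII, filled where the adjusted p is under 0.05. SOHLH2 is the factor above 0 in all 3 comparisons, at 1.60, 0.45 and 1.15, and the middle value is not called.

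FIGLA (macFas5 chromosome 13, 39075550 to 39087862, plus strand, 5 exons, 720 bases of exon) had 7.75 and 11.3 CPM in IVM MII libraries, 3.63 and 7.10 CPM in IVO MII libraries and 71.5 and 109 CPM in GV libraries. Both GV libraries lay far above all 4 MII libraries. FIGLA fell 9.44-fold in IVM MII against GV, at -3.24 ± 0.35 on the log2 scale (adjusted p = 3.04e-05). It fell 16.7-fold in IVO MII against GV (-4.06 ± 0.37, adjusted p = 5.89e-06). Both calls held in 14 of 14 alternative settings. Between the MII groups the levels were 9.54 ± 2.53 CPM in IVM MII and 5.36 ± 2.45 CPM in IVO MII, and the log2 difference of 0.82 ± 0.34 was not called (adjusted p = 0.0962, 95% interval 0.08 to 1.56). It became a call without IVO MII replicate 2 (1.40, adjusted p = 0.00649).

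The bHLH partners of such factors are the E-proteins, which ID proteins hold inactive by pairing with them. TCF3, an E-protein, had 37.9 ± 5.76 CPM in IVM MII, 69.3 ± 40.0 CPM in IVO MII and 30.9 ± 7.34 CPM in GV, and was called higher in IVO MII than in GV (1.17 ± 0.35, adjusted p = 0.0135). The IVO MII libraries were apart, at 97.6 and 41.0 CPM, and the call was lost when IVO MII replicate 1 (0.42, adjusted p = 0.250) or GV replicate 2 (0.94, adjusted p = 0.0859) was left out, and with the filter of 10 CPM in 2 libraries (0.83, adjusted p = 0.0553). Without that IVO MII library the difference between IVM MII and IVO MII, which was not called, stood at -0.11 in place of -0.87. ID1 had 1.26 ± 0.142 CPM in IVM MII, 0.0919 ± 0.0339 CPM in IVO MII and 1.14 ± 0.125 CPM in GV. It was lower in IVO MII than in GV (-3.59 ± 0.64, adjusted p = 5.11e-04) and higher in IVM MII than in IVO MII (3.75 ± 0.63, adjusted p = 0.00151), on 5 counts over both IVO MII libraries. TCF12 stood at 9.92 CPM in IVM MII, 9.48 CPM in IVO MII and 9.58 CPM in GV, and was not called in any of the comparisons. Of the 7 genes of this list, 6 were tested. In IVM MII against GV, 0 were called in either direction by edgeR, against 50.3% of all genes tested. At an unadjusted p under 0.05, 1 was higher and 0 lower in that comparison, DESeq2 called 0 and 0, and limma-voom called 1 and 0.

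NOBOX (chromosome 3, 177360618 to 177379689, minus strand, 12 exons, 2832 bases) was the lowest of the tested factors per kb of exon in every group. It had 4.91 and 3.29 CPM in IVM MII libraries, 5.14 and 4.92 CPM in IVO MII libraries and 9.50 and 9.60 CPM in GV libraries. The GV libraries lay above all 4 MII libraries, and the MII values lay within a narrow band. NOBOX fell 2.32-fold in IVM MII against GV (-1.22 ± 0.30, adjusted p = 0.00543) and 1.90-fold in IVO MII against GV (-0.92 ± 0.30, adjusted p = 0.0186). The call in IVM MII against GV ended without IVM MII replicate 2 (-0.95, adjusted p = 0.0509). The call in IVO MII against GV ended without GV replicate 1 (adjusted p = 0.0726), GV replicate 2 (0.0804), IVO MII replicate 1 (0.0517) or IVO MII replicate 2 (0.0624), with the log2 fold change between -0.94 and -0.88 in these. The MII groups did not pass the test against each other (-0.29 ± 0.30, adjusted p = 0.507, 95% interval -0.94 to 0.36).

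LHX8 (chromosome 1, 152118104 to 152145329, minus strand, 8 exons, 1727 bases) had 44.4 and 46.8 CPM in IVM MII libraries, 19.2 and 32.5 CPM in IVO MII libraries and 68.5 and 103 CPM in GV libraries. No groups overlapped, and IVM MII stood between IVO MII and GV. LHX8 fell 3.33-fold in IVO MII against GV (-1.73 ± 0.29, adjusted p = 3.65e-04), a call in 14 of 14 settings. It fell 1.88-fold in IVM MII against GV (-0.91 ± 0.28, adjusted p = 0.0190). That call held in 10 of 14 settings and ended with library totals (-0.62, adjusted p = 0.113) and without GV replicate 2 (-0.58, adjusted p = 0.180), IVM MII replicate 1 (-0.84, adjusted p = 0.107) or IVM MII replicate 2 (-0.94, adjusted p = 0.0840). Between IVM MII and IVO MII the log2 difference was 0.82 ± 0.29, just short of a call (adjusted p = 0.0557, 95% interval 0.20 to 1.44), and 10 of 14 settings called it, with adjusted p from 0.00573 to 0.293.

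LIM homeodomain proteins work in complexes built on LDB cofactors, and LMO proteins compete for the same cofactors. Of 9 such cofactors and relatives, 8 were tested. LMO1 stood at 97.2 ± 13.9 CPM in IVM MII, 89.2 ± 5.96 CPM in IVO MII and 61.0 ± 1.18 CPM in GV. Against GV it was called higher in IVM MII (0.67 ± 0.21, adjusted p = 0.0206) and in IVO MII (0.55 ± 0.21, adjusted p = 0.0432). These calls held in 10 and 6 of 14 settings. LMO2 was at 1.79 ± 0.0783 CPM in IVM MII, against 0.196 ± 0.0588 CPM in IVO MII (3.15 ± 0.60, adjusted p = 0.00324). LDB2 was at 1.75 CPM in IVM MII, 4.40 CPM in IVO MII and 1.73 CPM in GV, and was called lower in IVM MII than in IVO MII (-1.33 ± 0.38, adjusted p = 0.0242). That call ended with library totals (adjusted p = 0.0788) and without IVM MII replicate 2 (adjusted p = 0.140) or IVO MII replicate 2 (adjusted p = 0.0574). In all, 2 of the 8 were higher and 0 lower in IVM MII against GV by edgeR, 3 were higher and 1 lower in IVO MII against GV, and 1 was higher and 1 lower in IVM MII against IVO MII. For the 0, no further gene was lower at an unadjusted p under 0.05 (0), and DESeq2 and limma-voom gave 0 each. Of all genes tested, 50.3%, 58.5% and 24.6% were called in the 3 comparisons, in that order.

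SOHLH2 (chromosome 17, 15640533 to 15684124, minus strand, 11 exons, 2419 bases) had 544 and 566 CPM in IVM MII libraries, 251 and 249 CPM in IVO MII libraries and 197 and 170 CPM in GV libraries. The IVM MII libraries stood far above the other 4, whose groups did not overlap either. SOHLH2 rose 3.03-fold in IVM MII against GV (1.60 ± 0.22, adjusted p = 1.63e-04) and was 2.22-fold higher in IVM MII than in IVO MII (1.15 ± 0.22, adjusted p = 0.00312, 95% interval 0.67 to 1.63). Both calls held in 14 of 14 settings. In IVO MII against GV the log2 fold change was 0.45 ± 0.22 (adjusted p = 0.0953, 95% interval -0.03 to 0.92), and 0 of 14 settings called it, with values from 0.11 to 0.56 and adjusted p from 0.0507 to 0.637. The summed cumulus and granulosa markers were highest in IVM MII as well, and their part in the SOHLH2 result was not tested. Of the 6 tested, 2 were higher and 1 lower in IVM MII against GV, where 50.3% of all genes were called. In IVM MII against IVO MII 2 were higher and 4 not called, where 24.6% of all genes were called. GREM1 was called higher in both, at 2.87 ± 0.35 (adjusted p = 6.54e-05) and 2.86 ± 0.35 (adjusted p = 1.97e-04). GREM1 had 29.0 ± 5.27 CPM in IVM MII, 4.01 ± 1.16 CPM in IVO MII and 3.97 ± 1.60 CPM in GV, and TNFAIP6 had 27.9 ± 6.01, 13.6 ± 0.341 and 21.96 ± 3.61 CPM in the same order. HAS2 stood at 18.7 ± 2.28 CPM in IVM MII, 22.1 ± 13.4 CPM in IVO MII and 4.99 ± 0.120 CPM in GV, and FSHR at 3.89 ± 0.651, 2.76 ± 0.354 and 3.73 ± 0.270 CPM. VCAN had 45 counts in IVM MII, 29 in IVO MII and 10 in GV. CYP19A1 had 4 counts in IVM MII, 20 in IVO MII and 39 in GV, and AMH, INHBA, NR5A2, GATA4 and LHCGR had 0 counts in IVM MII.

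SOHLH1 (chromosome 15, 2689911 to 2696061, plus strand, 8 exons, 1412 bases), the pairing partner of SOHLH2, had 1 and 0 counts in IVM MII libraries, 11 and 5 counts in IVO MII libraries and 3 and 8 counts in GV libraries. That is 0.0231 and 0 CPM in IVM MII, 0.425 and 0.170 CPM in IVO MII and 0.102 and 0.270 CPM in GV. IVO MII and GV overlapped, and both IVM MII libraries lay below them. A count of 0 in a library allows up to 3 counts, or 0.0694 to 0.116 CPM depending on the library. Per scaled library size, the ratio of summed counts was 0.0684 in IVM MII over GV (1 against 11 counts, exact 95% interval 0.00159 to 0.470), 1.55 in IVO MII over GV (16 against 11 counts, 0.676 to 3.69) and 0.0441 in IVM MII over IVO MII (1 against 16 counts, 0.00105 to 0.284). These intervals cover counting error only and not the spread between libraries. Alternative settings let SOHLH1 into the fit in 7 cases, which were DESeq2, no filter on low counts and fits with a library left out. The fits with a library left out admitted it through IVO MII replicate 1, where its counts were highest (11). Without that library it was not admitted, so these fits lend no support to a difference. In IVM MII against GV it was lower but not called by DESeq2 (adjusted p = 0.113) or with no filter (adjusted p = 0.0644). In IVO MII against GV it was not called by either (adjusted p = 0.735 and 0.666). In IVM MII against IVO MII it was lower by both. DESeq2 gave no adjusted p there, and the fit with no filter called it (adjusted p = 0.0386).

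TBPL2 (chromosome 7, 119651468 to 119676161, minus strand, 7 exons, 1282 bases) had 12.4 and 15.7 CPM in IVM MII libraries, 24.8 and 17.4 CPM in IVO MII libraries and 93.1 and 87.1 CPM in GV libraries. The GV libraries stood far above the rest, and IVM MII lay below IVO MII without overlap. TBPL2 fell 6.41-fold in IVM MII against GV (-2.68 ± 0.26, adjusted p = 1.28e-05) and 4.27-fold in IVO MII against GV (-2.09 ± 0.25, adjusted p = 4.01e-05), both in 14 of 14 settings. Between the MII groups it was not called (-0.59 ± 0.25, adjusted p = 0.101, 95% interval -1.12 to -0.05), with a call in 1 of 14 settings, without IVO MII replicate 2 (-0.81, adjusted p = 0.0492).

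TBP, the general TATA-binding protein, and TBPL1, another relative that does not bind the TATA box, were higher in IVO MII than in GV. TBP was chosen for naming after its values were seen. Per kb of exon, TBPL2 had 9.69 and 12.2 CPM per kb in IVM MII libraries, 19.4 and 13.5 in IVO MII libraries and 72.6 and 67.9 in GV libraries. TBP had 55.7 and 47.9 CPM per kb in IVM MII, 73.2 and 74.0 in IVO MII and 43.4 and 36.3 in GV. TBPL2 was therefore above TBP in both GV libraries and below it in all 4 MII libraries. TBP was higher in IVO MII than in GV (0.89 ± 0.22, adjusted p = 0.00401) and not called in IVM MII against GV (0.38 ± 0.21, adjusted p = 0.157). TBPL1, at 151 CPM per kb in IVM MII, 225 in IVO MII and 107 in GV, was likewise higher in IVO MII than in GV (1.08 ± 0.24, adjusted p = 0.00219) and not called in IVM MII against GV (0.50 ± 0.24, adjusted p = 0.0966).

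TFIIA is the general factor that steadies TBP on DNA, and GTF2A1L is its germ cell form of the large subunit. GTF2A1L fell with TBPL2, to 132 ± 20.8 CPM in IVM MII and 50.6 ± 4.07 CPM in IVO MII, against 272 ± 0.661 CPM in GV. Its log2 fold changes were -1.05 ± 0.22 in IVM MII against GV (adjusted p = 0.00216) and -2.43 ± 0.23 in IVO MII against GV (adjusted p = 7.66e-06), and it was higher in IVM MII than in IVO MII (1.38 ± 0.22, adjusted p = 0.00113). GTF2A2, the small subunit of TFIIA, rose instead, to 106 ± 14.5 CPM in IVM MII and 131 ± 2.67 CPM in IVO MII, against 53.6 ± 1.35 CPM in GV (adjusted p = 0.00262 and 3.36e-04). TAF4B, a TFIID subunit enriched in gonads, was at 8.12 CPM in IVM MII, 12.4 CPM in IVO MII and 4.92 CPM in GV, and was called higher in IVO MII than in GV (adjusted p = 0.00357). Over the 7 genes of the list, all tested, 1 was higher and 1 lower in IVM MII against GV, 5 higher and 1 lower in IVO MII against GV, and 1 higher and 0 lower in IVM MII against IVO MII by edgeR. For that 0, 2 genes were lower at an unadjusted p under 0.05, DESeq2 called 1 and limma-voom 0. The shares called among all genes tested were 50.3%, 58.5% and 24.6% in the 3 comparisons, in that order.

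**Figure D3:**
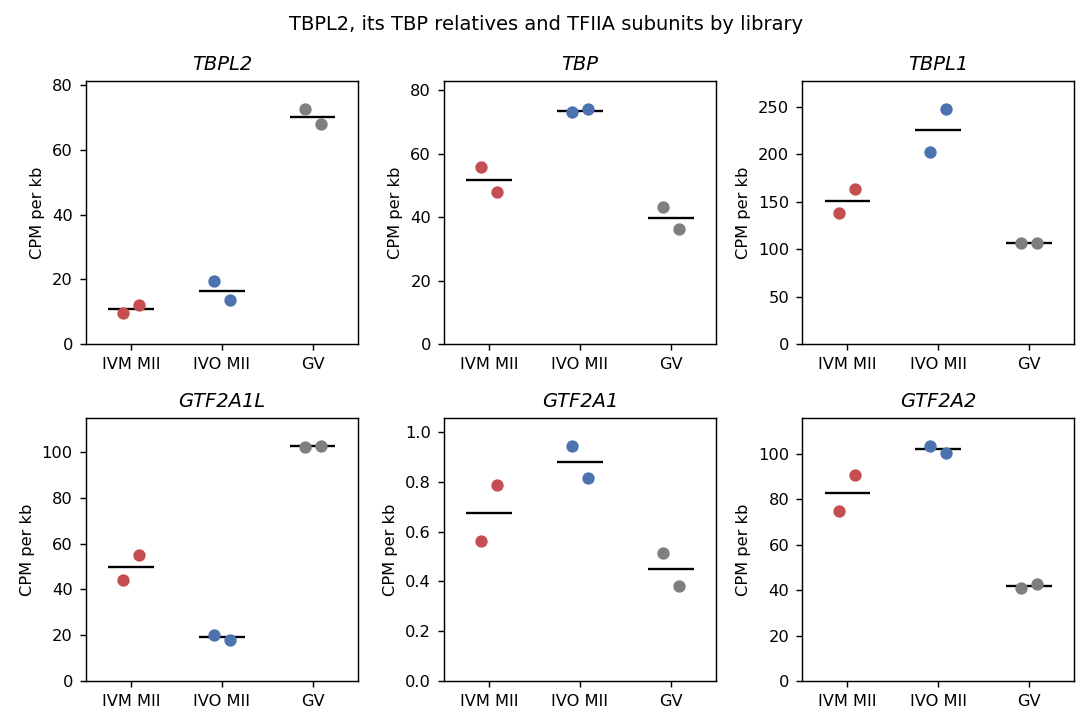
CPM per kb of exon (vertical axis, from 0, a scale for each gene) of TBPL2 and of genes of the TBP family and TFIIA in IVM MII, IVO MII and GV oocytes, with a point for each library and a bar for each mean. TBPL2 and GTF2A1L are highest in GV, at 70.2 and 103, and TBP, TBPL1 and GTF2A2 are highest in IVO MII, at 73.6, 225 and 102.

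Compared per kb of exon, the order of the factors changed with maturation. In IVM MII the order was SOHLH2 at 229, LHX8 at 26.4, FIGLA at 13.3, TBPL2 at 10.96, NOBOX at 1.45 and SOHLH1 at 0.00819 CPM per kb, with FIGLA and TBPL2 overlapping between libraries. In IVO MII it was SOHLH2 at 103, TBPL2 at 16.5, LHX8 at 14.9, FIGLA at 7.45, NOBOX at 1.78 and SOHLH1 at 0.211, and TBPL2 and LHX8 overlapped. In GV, FIGLA led at 125, followed by SOHLH2 at 75.8, TBPL2 at 70.2, LHX8 at 49.8, NOBOX at 3.37 and SOHLH1 at 0.132 CPM per kb, with SOHLH2 and TBPL2 overlapping. Reads across exon junctions may be missing from the counts, which bears on levels between genes, their shares and the setting of TBPL2 beside TBP. Mean exon length was 144 bases in FIGLA, the shortest, and 176.5 to 236 bases in the others, and its part in this order was not tested. Among all tested genes, FIGLA stood at percentile 77.5 in IVM MII, 69.8 in IVO MII and 95.9 in GV, and SOHLH2 at percentile 98.3 in IVM MII, 95.5 in IVO MII and 93.4 in GV. NOBOX stayed near the middle, at percentiles 43.4, 48.2 and 56.6 in IVM MII, IVO MII and GV.

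The summed level of the 6 factors was 281 ± 12.3 CPM per kb in IVM MII, 144 ± 3.81 in IVO MII and 324 ± 39.3 in GV. SOHLH2 made up 82.4% and 80.6% of that sum in IVM MII libraries, 73.4% and 70.0% in IVO MII libraries and 27.5% and 19.9% in GV libraries. FIGLA made up 3.95% and 5.43% in IVM MII, 3.57% and 6.71% in IVO MII and 33.5% and 42.8% in GV. TBPL2 had 3.89 ± 0.467% in IVM MII, 11.5 ± 3.17% in IVO MII and 21.9 ± 3.67% in GV. The share of LHX8 varied less, with means of 9.39% in IVM MII, 10.3% in IVO MII and 15.2% in GV. The shares of a library add up to 100, so that one factor's share moves with the others.

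**Figure D4:**
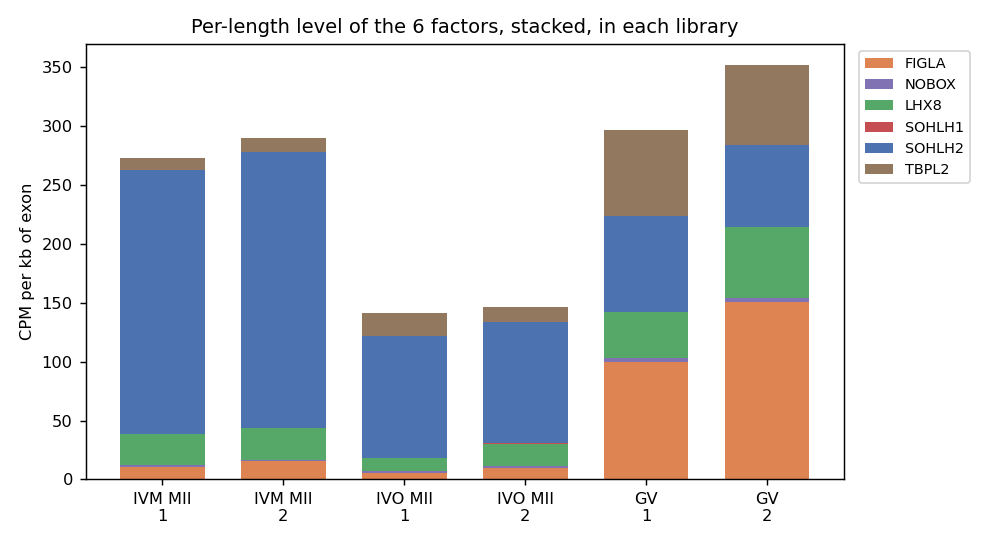
Stacked CPM per kb of exon of the 6 factors (vertical axis) in each of the 6 libraries (horizontal axis). SOHLH2 fills 70.0% to 82.4% of the bar in the 4 MII libraries and 19.9% to 27.5% in the 2 GV libraries, where FIGLA and TBPL2 take up most of the rest.

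The factors did not share 1 pattern. Over the 6 libraries, the Euclidean distance between mean-centred log2 CPM was smallest for NOBOX and LHX8, at 1.49, and largest for FIGLA and SOHLH2, at 5.52. The genes nearest to each factor were picked among 5875 symbols with a mean of at least 10 CPM (5876 for NOBOX, whose own mean is lower). As the smallest of so many distances, theirs cannot be set against those between the factors. Nearest to FIGLA was EIF6, an initiation factor that keeps ribosomal subunits apart, at a distance of 0.41 and with 33.0 CPM in IVM MII, 21.0 in IVO MII and 335 in GV, followed by FBXW12 at 0.52 and the proteasome subunit PSMB1 at 0.55, where the median candidate lay at 5.08. Nearest to TBPL2 was CSTF1, a subunit of the cleavage stimulation factor of 3' end formation, at 0.27 and with 109 CPM in IVM MII, 170 in IVO MII and 688 in GV, followed by CTNNBL1 and TTC1 at 0.35 each (median 3.56). LHX8 had the chaperonin subunit CCT4 at 0.17, with 17.9 CPM in IVM MII, 9.70 in IVO MII and 33.8 in GV, then TMEM206 and NTPCR at 0.26 each (median 2.64). SOHLH2 had the integrin subunit ITGAE at 0.24, with 37.5 CPM in IVM MII, 18.3 in IVO MII and 12.3 in GV, then HPS3 at 0.25 and TMED7 at 0.27 (median 1.85). NOBOX had MRPL38 and TTN at 0.28 each and ZNF3 at 0.29 (median 2.25).

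Genes that mouse work ties to these factors were called at shares near those of all genes in IVM MII against GV. Of 19 such genes, 18 were in the table and 15 tested. Against GV, 4 were higher and 4 lower in IVM MII and 5 higher and 6 lower in IVO MII, and in IVM MII against IVO MII 4 higher and 1 lower. Their median log2 fold changes were 0.14, -0.49 and 0.19 in that order, beside 0.06, -0.07 and 0.02 over all genes tested, of which 50.3%, 58.5% and 24.6% were called.

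GDF9, an oocyte growth factor that acts on granulosa cells, had 4502 ± 705 CPM in IVM MII, 2451 ± 273 CPM in IVO MII and 13918 ± 432 CPM in GV, and fell in IVM MII (-1.63 ± 0.29, adjusted p = 8.31e-04) and in IVO MII (-2.51 ± 0.30, adjusted p = 3.88e-05) against GV. ZAR1, which binds stored mRNA, fell to 16.7 CPM in IVM MII and 15.7 CPM in IVO MII, against 77.0 CPM in GV (adjusted p = 2.00e-05 and 1.16e-05). PADI6, of the cytoplasmic lattices, fell as well, with log2 fold changes of -2.29 in IVM MII and -2.67 in IVO MII against GV, which stood at -1.63 and -2.00 without GV replicate 2. By contrast, POU5F1 was called above GV on both routes, each time in 14 of 14 settings. It changed by 2.11 ± 0.47 for IVM MII (adjusted p = 0.00328) and 2.73 ± 0.48 for IVO MII (adjusted p = 5.00e-04). H1-8 was called above GV for IVM MII (1.37 ± 0.40, adjusted p = 0.0145). That call held in 12 of 14 settings. It was lost without GV replicate 1, at a value of 0.99, and without IVM MII replicate 1, at 0.93. The zona pellucida gene ZP3 had 4930 CPM in IVM MII, 1609 CPM in IVO MII and 7344 CPM in GV, and it was called higher in IVM MII than in IVO MII (1.61 ± 0.37, adjusted p = 0.00819) but not when IVO MII replicate 1 was left out (1.26, adjusted p = 0.0624). ZP2 (0.83 ± 0.25, adjusted p = 0.0301) and ZP4, from the oocyte markers (1.123 ± 0.27, adjusted p = 0.0107), were called higher in IVM MII than in IVO MII too, and ZP1 was not (0.40 ± 0.34, adjusted p = 0.416). The call of ZP4 was lost without IVM MII replicate 2 (1.00, adjusted p = 0.05003) or IVO MII replicate 1 (0.95, adjusted p = 0.0963), and that of ZP2 without any 1 of the 4 MII libraries or GV replicate 1, with values from 0.78 to 0.91 and adjusted p from 0.0506 to 0.163. ZP1 was called higher in IVM MII than in GV (1.21 ± 0.34, adjusted p = 0.0116), a call lost without IVM MII replicate 1 (0.59, adjusted p = 0.167) or GV replicate 1 (1.08, adjusted p = 0.0588). KIT, the receptor of KIT ligand, was higher in IVO MII, at 39.2 CPM, than in GV, at 17.6 CPM (1.15 ± 0.26, adjusted p = 0.00250). In IVM MII it stood at 19.5 CPM and was called lower than in IVO MII (-1.01 ± 0.26, adjusted p = 0.0153). That call held in 12 of 14 settings. It was lost with library totals (-0.78, adjusted p = 0.0834) and without IVM MII replicate 2 (-0.85). The maintenance DNA methyltransferase DNMT1 was also higher in IVO MII than in GV (1.26 ± 0.30, adjusted p = 0.00381).

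Of 17 other transcription factors of germ cells and follicles, 13 were tested. In IVM MII 4 were higher and 3 lower than in GV, in IVO MII 5 higher and 2 lower, and in IVM MII against IVO MII 1 higher and 1 lower. Among all genes tested, 50.3%, 58.5% and 24.6% were called in these comparisons. FOXR1, a forkhead factor, fell to 14.9 ± 1.43 CPM in IVM MII and 19.3 ± 0.229 CPM in IVO MII, against 136 ± 17.0 CPM in GV (-3.19 ± 0.23 and -2.81 ± 0.23, adjusted p = 2.11e-06 and 2.82e-06). FOXO3, the forkhead factor that keeps primordial follicles dormant in mouse, rose to 85.6 CPM in IVM MII and 112 CPM in IVO MII, against 41.1 CPM in GV (adjusted p = 0.00192 and 1.79e-04). The homeobox factor OTX2 was lower in IVM MII, at 1091 CPM, than in GV, at 2625 CPM (-1.27 ± 0.27, adjusted p = 0.00237), and in IVO MII, at 1261 CPM, than in GV (-1.06 ± 0.27, adjusted p = 0.00508). The IVO MII call of OTX2 was lost without GV replicate 1 (-0.85, adjusted p = 0.0532) or IVO MII replicate 1 (-0.91, adjusted p = 0.0529). Over all 5 lists, 58 of 59 symbols were in the table and 49 tested. Of these, 11 were higher and 8 lower in IVM MII against GV, 19 and 11 in IVO MII against GV, and 8 and 3 in IVM MII against IVO MII. These counts stand beside the same 50.3%, 58.5% and 24.6% of all genes tested.

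**Figure D5:**
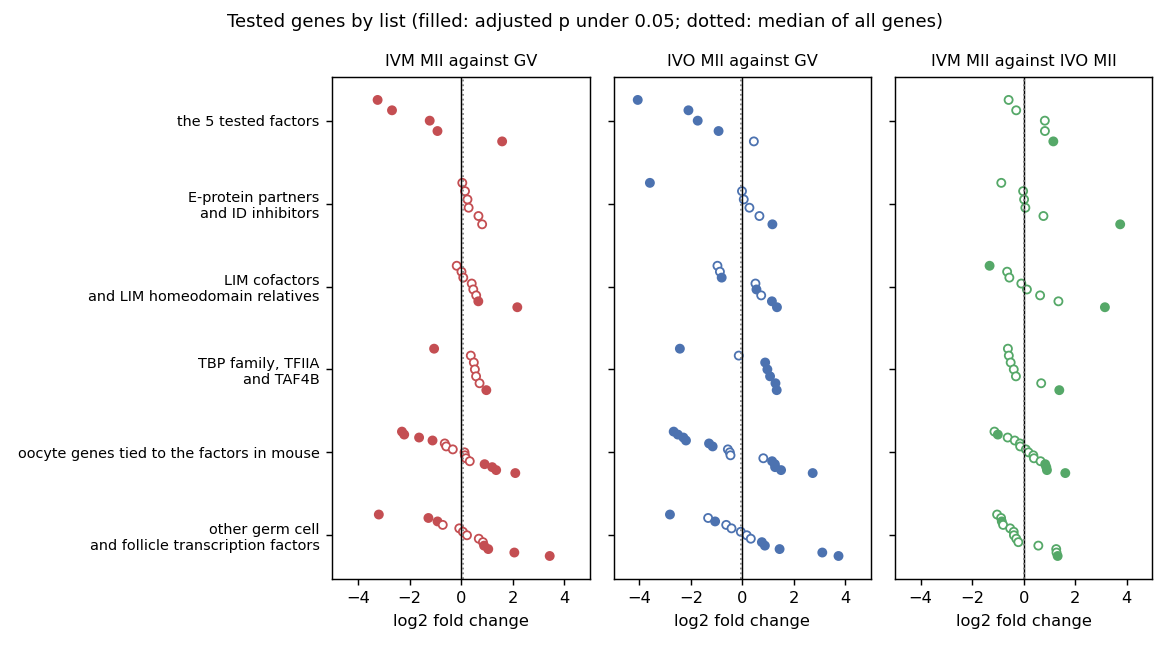
log2 fold changes (horizontal axis) of each tested factor and of the tested genes of the 5 lists (rows) in IVM MII against GV, IVO MII against GV and IVM MII against IVO MII, filled where called, with a dotted line at the median of all genes tested. The 4 factors that fell lie left of the line in the first 2 panels, and the lists of mouse-tied oocyte genes and other transcription factors have genes on both sides of it.

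The exons of the 6 factors overlap no exon of another gene in the annotation (0 genes for each). The nearest gene lay 1352 bases from LHX8 and between 2315 and 19138 bases from the others. ATG14, an autophagy gene 2315 bases from TBPL2 on the same strand, had 13.8 CPM in IVM MII, 10.4 CPM in IVO MII and 21.5 CPM in GV. Its log2 fold change was -0.64 in IVM MII against GV (adjusted p = 0.0512) and -1.04 in IVO MII against GV (adjusted p = 0.00422), the second call ending without GV replicate 2 (-0.83, adjusted p = 0.0563). CCDC169, 16437 bases from SOHLH2 on the same strand, had 3.40 CPM in IVM MII, 2.58 CPM in IVO MII and 3.26 CPM in GV, and was not called in any of the comparisons (log2 fold changes of 0.06 in IVM MII and -0.33 in IVO MII against GV, and 0.39 in IVM MII against IVO MII). LCN9, 9599 bases from SOHLH1 on the opposite strand, had 1.08 CPM in IVM MII, 3.11 CPM in IVO MII and 5.11 CPM in GV. It was lower in IVM MII than in GV (-2.22, adjusted p = 0.00186) and than in IVO MII (-1.51, adjusted p = 0.0303). Without IVM MII replicate 1 these values were -3.12 and -2.42, and the second call was lost without IVM MII replicate 2 (-0.96, adjusted p = 0.154), with library totals (adjusted p = 0.101) and with the 4 compared libraries alone (adjusted p = 0.0585). ADD2, 10386 bases from FIGLA on the same strand, had 11.8 CPM in IVM MII, 10.04 CPM in IVO MII and 17.3 CPM in GV. It was called lower in IVO MII than in GV (-0.78, adjusted p = 0.0157), but not without GV replicate 1 (adjusted p = 0.0907), GV replicate 2 (0.0570) or IVO MII replicate 1 (0.0743). ARHGEF5, 19138 bases from NOBOX on the opposite strand, had 5.62 CPM in IVM MII, 2.71 CPM in IVO MII and 4.17 CPM in GV. Its call as higher in IVM MII than in IVO MII (1.05, adjusted p = 0.0386) held in 6 of 13 settings and was lost without any 1 of the 6 libraries except IVM MII replicate 2, with values from 0.80 to 1.07 and adjusted p from 0.0505 to 0.188. LOC107127172, beside LHX8, had at most 2 counts in a library and was not tested. These neighbours were chosen by position.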

How the data were processed

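The data are deposited raw read counts per gene in 3 groups of 2 libraries. Per the file headers, the authors counted fragments over exons by gene with featureCounts 2.0.1 with the macFas5 RefSeq annotation, and no strand option was set. The submitters' processing notes also list fastp, FastQC, Bowtie2 and SAMtools. Since Bowtie2 does not place spliced reads, those across exon junctions may be missing, and paralogs and processed pseudogenes may share reads. Exon length is a deposited column of the same table.

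edgeR 4.0.16 in R 4.3.3 (filterByExpr, which kept 15815 genes and left out 12349, TMM factors of 0.902 to 1.22, robust quasi-likelihood fit with group terms over all 6 libraries) gave the two-sided tests, at an adjusted p of 0.05 with no fold threshold. The fit had 3 residual degrees of freedom and a common biological coefficient of variation of 0.232. SE is the log2 fold change over the square root of F. Intervals and the floor of 3 counts cover counting error only, where they rest on counts alone. The alternatives were RLE factors, library totals, DESeq2 1.42.0, limma-voom (limma 3.58.1), no low-count filter or one of 10 CPM in 2 libraries, fitting only the 4 libraries compared, the replicate number as a block and leaving out each library. The procedure was tested on simulated data.

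The factors, the lists and how genes were named were chosen with earlier results of these data known. Named were the 6 factors, genes from among the up to 3 called per direction, list and comparison by adjusted p, and the 3 genes nearest each tested factor. Not every gene so selected from the lists is given, and no fixed rule set which were left out. Others are counted only. TCF12, TBP, markers of other cells and the neighbouring genes were named after their values were seen or for their position. Some listed genes were matched by gene number through a RefSeq table of another assembly, used for naming alone. Sequences were not used here. Figures were drawn with matplotlib 3.10.9.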

Additional observations from a re-analysis of the deposited data

How the results depend on the processing

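Depth limits SOHLH1 alone among the factors, since the tested factors had at least 94 counts in each library. No fold change of a factor changed sign in any of the alternatives. Of the tests of factors, 5 in IVM MII against GV and 4 in IVO MII against GV lost a call, all for LHX8 and NOBOX, and 13 in IVM MII against IVO MII gained one. The lone library of a group is assumed to vary like the others when its partner is left out. The cause of these changes was not tested. In IVM MII against IVO MII, the factors called higher were 1 in the report's fit, 2 with library totals, DESeq2, limma-voom, no filter, the filter of 10 CPM or the 4 compared libraries alone, and 3 with the replicate block, where FIGLA (adjusted p = 0.0228) and LHX8 (adjusted p = 0.0230) joined SOHLH2. With no filter 1 factor, SOHLH1, was called lower. Correlations of the replicates' deviations were -0.193 for IVM MII and IVO MII, -0.202 for IVM MII and GV and 0.349 for IVO MII and GV, so that the replicate number was not taken as a pairing.

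The filter of 10 CPM, which tests fewer genes, gave 2268 genes higher and 2352 lower in IVM MII against GV, 2727 and 2859 in IVO MII against GV, and 1051 lower in IVM MII against IVO MII. Listed genes called higher numbered 5 in IVM MII against GV and 9 in IVO MII against GV with that filter, and 17 in IVM MII against GV with library totals. Listed genes called lower in IVM MII against IVO MII numbered 3 in the report's fit, 5 with RLE factors, 0 with library totals and 7 with DESeq2. With library totals 894 genes were lower in that comparison. Leaving out a library gave, in IVM MII against GV, 2 to 5 factors lower (5 with SOHLH1, without IVO MII replicate 2), 2580 to 4452 genes higher, 6 to 13 listed genes higher, and in IVO MII against GV 11 to 20 listed genes higher. In IVM MII against IVO MII it gave 1 to 3 factors higher, 0 to 2 lower, 1327 to 2096 genes higher, 753 to 1496 lower, 4 to 8 listed genes higher and 0 to 4 lower. In both comparisons the most factors were lower without IVO MII replicate 2, where SOHLH1 was among them. SOHLH1 entered such fits only through IVO MII replicate 1, so they lend no support to a difference in it. CCDC169, which was never called in IVM MII against GV, stood at 0.06 there, at -0.027 with the 4 compared libraries alone and between -0.095 and 0.26 with a library left out.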
